A study of Mus musculus with 8 samples.

Results

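The differentiation of cells of the Twist2 lineage, from growth medium to cultures titled 48 hours, was described over all 5457 genes of the deposited table, which are all the genes listed for the series. Every listed gene entered, and its change was taken as log2 of the mean CPM (read counts scaled to a fixed library size of 1e+06 reads) plus 1 in the 48 hour cultures, Tw2_48, over that in growth medium, Tw2_GM. The series holds 8 libraries in 4 groups of 2, from tdTomato-positive cells sorted from the hind limb skeletal muscle of adult C57BL/6 mice and plated on Matrigel. The 4 Tw2 libraries came from mice of genotype Tw2-CreERT2/+;R26-tdTO+ and the 4 Pax7 libraries, Pax7_GM and Pax7_48, from Pax7-CreERT2/+;R26-tdTO+ mice. All mice received tamoxifen every other day, 3 times in all, 10 days before the muscle was taken. In this system Cre recombinase tied to the estrogen receptor enters the nucleus on tamoxifen and switches on the red protein tdTomato for good, so the label marks cells, and the descendants of cells, in which the driver gene was active at that time. The labels give a growth medium of Ham's F10 with 2% Primocin and 20% FBS and, for differentiation, high-glucose DMEM with bFGF, 2% Primocin and 2% horse serum. They do not say which medium the cultures titled 48 were in. The unit of 48 is given in hours in the Tw2 titles and not at all in the Pax7 titles. The extraction text speaks of RNA from freshly sorted cells, whereas other labels describe plated and cultured cells.

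Adult skeletal muscle is repaired by mononucleated progenitors, chiefly the Pax7-expressing satellite cells, which divide as myoblasts in serum-rich medium. When serum is lowered, myoblasts leave the cell cycle, the transcription factor myogenin and its partners of the MEF2 family switch on muscle genes, and the cells align, fuse into multinucleated myotubes and build sarcomeres, the contractile units of actin and myosin filaments. Twist2 is a basic helix-loop-helix transcription factor of mesenchymal cells. Twist2, Myod1, Myf5 and Myf6 were not analysed here.

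Promoters of muscle genes that rose and of cell cycle genes that fell are shown first, because their short motifs belong to the factors known to act in muscle differentiation and in the cell cycle. Each line gives the 250 bases before the start of the gene, 5′ to 3′ on the gene's strand, from RefSeq (GRCm38.p6). Klhl41 (chr2:69669870-69670119, plus strand) encodes a sarcomere protein of the kelch family, Myoz2 (chr3:123034988-123035237, minus strand) a Z-disc protein, and Actc1 (chr2:114052876-114053125, minus strand) the cardiac actin that embryonic skeletal muscle also makes. Capitals mark the E-boxes CAGCTG and CACCTG, bound by myogenic factors, the MEF2 site, or the CArG box bound by serum response factor, on either strand.
Klhl41: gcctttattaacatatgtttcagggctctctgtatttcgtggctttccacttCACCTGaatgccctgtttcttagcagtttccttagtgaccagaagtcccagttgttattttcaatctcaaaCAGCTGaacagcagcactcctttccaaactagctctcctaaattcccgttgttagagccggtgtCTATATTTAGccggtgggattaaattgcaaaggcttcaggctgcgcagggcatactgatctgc
Myoz2: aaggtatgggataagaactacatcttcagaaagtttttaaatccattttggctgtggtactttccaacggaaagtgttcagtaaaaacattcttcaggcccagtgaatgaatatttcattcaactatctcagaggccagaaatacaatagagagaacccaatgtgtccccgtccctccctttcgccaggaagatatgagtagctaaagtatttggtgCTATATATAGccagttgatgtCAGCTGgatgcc
Actc1: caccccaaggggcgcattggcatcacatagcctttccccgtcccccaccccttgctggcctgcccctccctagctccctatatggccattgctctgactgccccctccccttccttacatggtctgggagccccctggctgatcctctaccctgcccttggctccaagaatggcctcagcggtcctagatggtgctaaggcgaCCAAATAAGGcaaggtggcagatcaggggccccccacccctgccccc

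The following promoters belong to genes that fell. Top2a (chr11:99024190-99024439, minus strand) encodes the DNA topoisomerase of dividing cells, Mki67 (chr7:135716380-135716629, minus strand) the proliferation marker Ki-67, and Mcm7 (chr5:138171884-138172133, minus strand) a subunit of the replicative helicase. Mcm7 was chosen after its values were seen. Capitals mark the CCAAT box, bound by NF-Y, the cell cycle homology region TTTGAA (CHR), bound by the DREAM and MuvB complexes, and in Mcm7 the E2F motif TTCCCGC, all on either strand.
Top2a: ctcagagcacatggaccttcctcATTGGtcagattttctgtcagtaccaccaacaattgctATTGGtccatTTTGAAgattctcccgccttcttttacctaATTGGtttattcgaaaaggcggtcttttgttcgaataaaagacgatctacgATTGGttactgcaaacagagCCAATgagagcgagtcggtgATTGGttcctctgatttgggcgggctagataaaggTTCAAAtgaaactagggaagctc
Mki67: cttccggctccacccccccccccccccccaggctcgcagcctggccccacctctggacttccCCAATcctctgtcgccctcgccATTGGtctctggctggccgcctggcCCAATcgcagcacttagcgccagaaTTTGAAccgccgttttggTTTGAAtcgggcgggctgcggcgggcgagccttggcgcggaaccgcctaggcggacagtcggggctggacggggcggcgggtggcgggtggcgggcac
Mcm7: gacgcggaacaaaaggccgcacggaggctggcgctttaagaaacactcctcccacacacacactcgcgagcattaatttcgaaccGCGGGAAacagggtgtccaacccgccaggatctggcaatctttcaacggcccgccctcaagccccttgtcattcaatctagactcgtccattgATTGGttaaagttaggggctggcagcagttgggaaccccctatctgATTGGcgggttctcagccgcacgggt

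The Klhl41 promoter held 3 of the marked motifs, with CAGCTG from 127 to 122 and the MEF2 site from 63 to 54 bases before the start. In Myoz2 the MEF2 site and CAGCTG lay at 33 to 24 and 12 to 7 bases before it, and in Actc1 the CArG box at 47 to 38. Top2a held 6 CCAAT boxes and 2 CHR motifs, and Mki67 held 3 and 2. Over windows of 300 bases, 50 of them past the start, 40.3% of the 62 promoters found for the contractile lists held CAGCTG, against 15.8% of the 4304 promoters of listed genes and 16.1% of all 27025 promoters of the table. CACCTG was in 25.8%, 15.8% and 20.0% of the same sets. The MEF2 site was in 17.7% of the contractile promoters, 2.00% of listed and 3.26% of all promoters, and the CArG box in 8.06%, 1.39% and 1.57%. Of the 8 promoters found for the list of fusion genes, 12.5% held CAGCTG and 0 held the MEF2 site or the CArG box. The CHR was in 75.0% of the 36 promoters of the mitosis list, against 11.1% of listed genes and 18.1% of all. The CCAAT box was in 75.0% of the mitosis promoters and 62.5% of the 40 of the DNA replication list, against 38.9% of listed genes. It was also frequent in some lists whose genes mostly rose, and so was not particular to genes that fell. It was in 78.6% of the 14 promoters of the sterol and fatty acid synthesis list and in 4 of the 8 fusion promoters. In the contractile lists it was in 35.5% of promoters. TTCCCGC was in 35.0% of the replication promoters and 9.04% of listed genes. The promoters printed are examples picked by hand. A match is a description of the letters and does not show that a factor binds.

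Most listed genes differed between the cultures, and large changes were seen in both directions. By limma on log2(CPM + 1), with Benjamini-Hochberg adjustment over the 5452 genes, 1923 (35.3%) were called higher and 2664 (48.9%) lower in Tw2_48 at adjusted p under 0.05, or 84.1% in either direction. These percentages are the background for the gene groups below. The median log2 change was −0.49, and the 10th and 90th percentiles were −2.55 and 2.39. By the deposited means 1425 genes (26.1%) were at least 2-fold higher and 2078 (38.1%) at least 2-fold lower. A log2 change past 4 was seen for 243 genes upward and for 211 downward. The libraries of the 2 groups did not overlap for 5178 genes (95.0%).

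The table is selected, which bears on every count. By the deposited means, some other group differed 2-fold or more from Tw2_GM in every listed gene. Single libraries could be worked out for 5452 genes, and no fewer than 4 of the 8 reached 10 CPM in each. A total of 3503 genes passed the 2-fold difference in Tw2_48 itself, 372 of them (6.82% of the list) in no other group. Just inside that threshold lay Adprhl2, at a log2 change of 1.0002, and just outside it Eif4b, at 0.9995. Of the 557 genes under 10 CPM in both Tw2_GM libraries 519 were called higher and 11 lower, and of the 682 genes under it in both Tw2_48 libraries 643 were called lower and 12 higher. Genes so low in 1 group had to be high elsewhere to be listed.

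Scaling and base composition bear on the size of changes, small and large. With size factors, which set the typical listed gene level between libraries, the median change was −0.04, a shift of 0.45, and 2189 genes were called higher and 2218 lower. All 1923 genes called higher and 2218 of the 2664 called lower kept their calls there. In 5 groups of genes from the poorest to the richest in transcript GC content the median changes were −0.55, −0.71, −0.83, 0.55 and 0.60. With a trend with GC content and length removed, 88.6% of the higher and 93.4% of the lower calls were kept, and 34 genes called higher were called lower. Large changes also shifted there. The median of the excitation-contraction coupling list, described below, was 3.65 instead of 4.55.

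**Figure D1:**
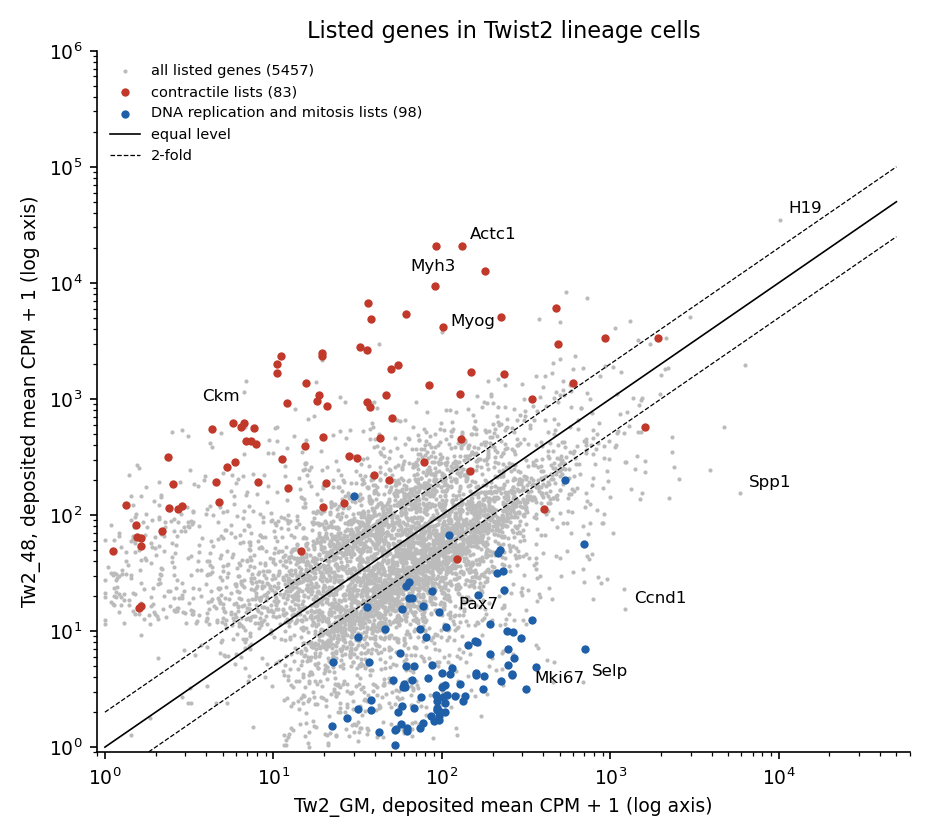
Deposited mean CPM plus 1 of each of the 5457 listed genes in Tw2_GM (horizontal, log axis) and Tw2_48 (vertical, log axis), with 83 genes of 4 contractile lists in red and 98 genes of the DNA replication and mitosis lists in blue. The red points lie mostly far above the line of equal level and the blue points below it, and H19, at 10246 and 35032 CPM, is the highest of the listed genes in both groups.

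The implied library sizes, rounded, were 12173390 and 11295697 in Tw2_GM and 13733379 and 9396831 in Tw2_48. The fitted values were not whole numbers, lying 0.126 to 0.436 from one, and whether they are raw read totals was not tested. Percentages of reads are relative to these sizes. On them 3 reads, the upper limit that a count of 0 allows, come to between 0.218 and 0.319 CPM, by counting error alone. In each group the libraries are called deeper and shallower, and the deeper is given first. Their Pearson correlation over genes was 0.994 in Tw2_GM, 0.996 in Tw2_48, 0.995 in Pax7_48 and 0.962 in Pax7_GM, whose libraries thus lie farther apart. In Tw2_GM 3 genes and in Tw2_48 4 genes differed more than 2-fold in CPM + 1 between libraries, and genes near the floor can differ by more in CPM. Standard errors (SE) pool the spread of a gene over all 4 groups, and p-values measure only how these libraries vary, as no label states separate mice or cultures. In bulk RNA, fewer cells that express a gene and less RNA of it per cell cannot be told apart.

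The satellite cell regulator fell and the late myogenic regulators rose. Pax7 (chromosome 4, 139737062 to 139833528), which marks and maintains satellite cells, was at 113 and 109 CPM in growth medium and 13.0 and 12.6 CPM at 48 hours. The 48 hour libraries lay far below those in growth medium, and Pax7 fell by 3.02 ± 0.12 on the log2 scale (± SE, 2 libraries per group; limma adjusted p = 8.7e-08). Positions are those of RefSeq on GRCm38.p6. Myog (chromosome 1, 134289989 to 134292548), which encodes myogenin, was at 109.6 and 89.1 CPM in growth medium and 3697 and 3859 CPM at 48 hours and rose by 5.24 ± 0.16 (adjusted p = 3.26e-08). Mef2c, its partner in the activation of muscle genes, was at 2.14 and 2.48 CPM in growth medium and 83.7 and 81.8 CPM at 48 hours and rose by 4.66 ± 0.25. Neither gene's libraries overlapped between the groups, as for 95.0% of all genes tested.

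Of 12 myogenic transcription factors tested, 8 rose and 3 fell, beside 35.3% higher and 48.9% lower of all genes, with a median of 1.31 against −0.49 for all. Tead4, a TEA-domain factor that binds muscle enhancers, rose by 3.41 ± 0.13, its cofactor Vgll3 by 2.41 ± 0.18 and Mef2d by 2.23 ± 0.13. The E protein gene Tcf3, whose product pairs with myogenic factors on E-boxes, fell by 2.05 ± 0.15, and the homeobox gene Six4, which acts early in the myogenic programme, by 1.41 ± 0.17. Tcf12, another E protein, was at −0.12 ± 0.22 and was not called. The inhibitors of E proteins, Id1, Id2 and Id3, all fell. Id3 was at 442 and 478 CPM in growth medium and 3.86 and 5.0 CPM at 48 hours and fell by 6.41 ± 0.23 (adjusted p = 5.83e-08). Id2 fell by 4.60 ± 0.25 and Id1 by 4.36 ± 0.21.

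Genes of satellite cells and of Notch signalling, which keeps satellite cells undifferentiated, mostly fell, with a median of −1.38. Of 22 tested, 15 were lower (68.2%) and 5 higher (22.7%), beside 48.9% and 35.3% of all genes. The hepatocyte growth factor receptor Met was at 320.4 and 309.6 CPM in growth medium and 11.6 and 9.26 CPM at 48 hours and fell by 4.80 ± 0.18. The adhesion molecule Vcam1 fell by 4.33 ± 0.18 and the syndecans Sdc3 and Sdc4, heparan sulfate proteoglycans of the satellite cell surface, by 4.15 ± 0.16 and 3.08 ± 0.12. The Notch target Hes1 fell by 2.87 ± 0.18, the ligands Jag1 and Jag2 by 2.40 ± 0.17 and 1.42 ± 0.14, and the receptor Notch2 by 1.34 ± 0.14. The receptor Notch1, in contrast, rose by 1.25 ± 0.14, and the receptor Notch3 was at −0.30 ± 0.17, not called. Among the members that rose were Spry1 (2.92 ± 0.16), which dampens growth factor receptor signals, and Hes6 (1.99 ± 0.17), an antagonist of Hes1. The members' summed share of the reads was 0.528% and 0.495% in Tw2_GM and 0.420% and 0.40% in Tw2_48.

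**Figure D2:**
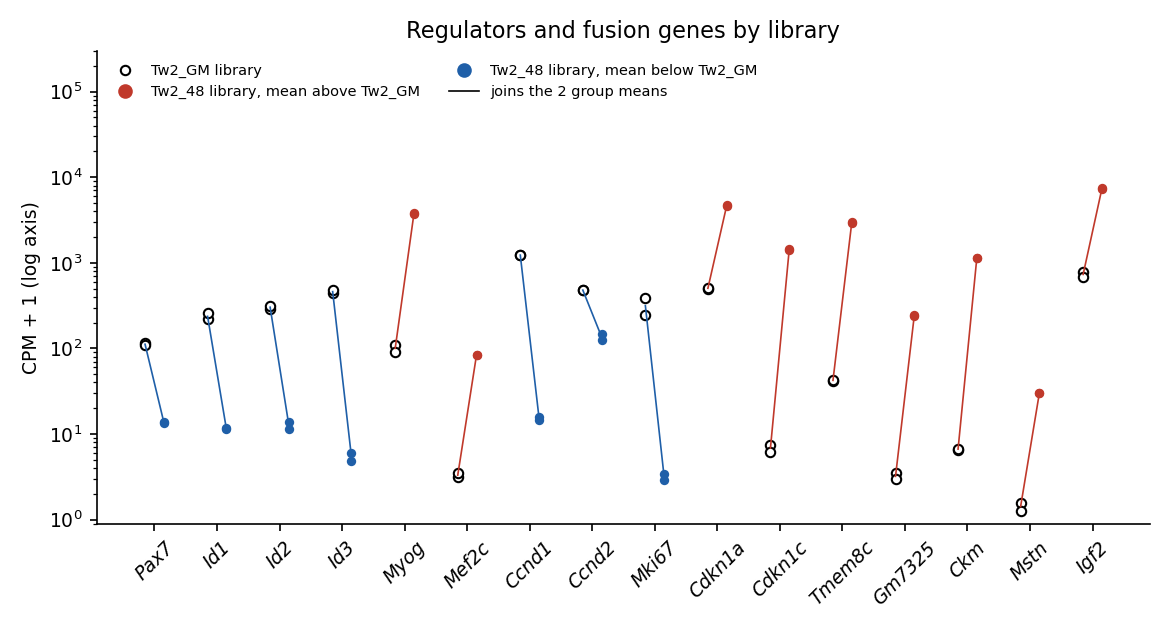
CPM plus 1 (log axis) of 16 regulators and fusion genes in each of the 2 Tw2_GM libraries (open circles) and the 2 Tw2_48 libraries (filled, red where the mean is above that of Tw2_GM and blue where it is below), with a line between the group means. Pax7, the Id genes, Ccnd1, Ccnd2 and Mki67 lie lower at 48 hours and the other genes higher. No gene's libraries overlap between the groups, which holds for 95.0% of all genes tested.

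Genes of cell division fell almost without exception. Of 48 mitosis genes all 48 fell, with log2 changes from −6.66 to −2.76, and of 50 DNA replication genes 49 fell. Together these 98 genes took 1.33% and 1.27% of the reads in Tw2_GM and 0.108% and 0.109% in Tw2_48. At 48 hours 74 of them were under 10 CPM in both libraries. Top2a (chromosome 11, 98992943 to 99024189) was at 771 and 649 CPM in growth medium and 6.63 and 5.43 CPM at 48 hours and fell by 6.66 ± 0.33 (adjusted p = 3.29e-07). Mki67 was at 386 and 243 CPM in growth medium and 2.40 and 1.92 CPM at 48 hours and fell by 6.61 ± 0.47 (adjusted p = 2.67e-06). The Pax7_GM libraries, which enter its SE, were at 19.1 and 61.5 CPM.

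Among genes of chromosome segregation and cytokinesis, Anln, which encodes the contractile ring protein anillin, fell by 6.22 ± 0.22, the mitotic cyclin gene Ccna2 fell by 5.97 ± 0.17 and the spindle assembly factor Tpx2 by 5.93 ± 0.20. The median of the mitosis list was −5.24. In the replication list, with a median of −3.78, the helicase subunit Mcm3 was at 218 and 227 CPM in growth medium and 2.48 and 2.98 CPM at 48 hours and fell by 5.91 ± 0.15. Mcm6 fell by 5.52 ± 0.13 and Mcm7 fell by 4.06 ± 0.14. Pole, the catalytic subunit of DNA polymerase epsilon, fell by 5.74 ± 0.20, the checkpoint mediator Clspn by 5.67 ± 0.21 and the exonuclease Exo1 by 5.66 ± 0.14. Exo1 was at 51.9 and 52.2 CPM in growth medium and at 0 and 0.106 CPM, the latter 1 read, at 48 hours. E2f2, which encodes an E2F transcription factor, was the exception in the replication list, at 31.1 and 26.7 CPM in growth medium and 145 and 142 CPM at 48 hours, and rose by 2.27 ± 0.13 (adjusted p = 8.22e-07).

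Regulators of the G1 phase moved both ways, with 5 of 18 higher (27.8%) and 10 lower (55.6%), beside 35.3% and 48.9% of all genes. Cdkn1c (chromosome 7, 143458339 to 143461050), the cyclin-dependent kinase inhibitor p57, was at 6.49 and 5.22 CPM in growth medium and 1431 and 1416 CPM at 48 hours, a rise of 7.71 ± 0.21 (adjusted p = 1.88e-08) exceeded only by that of Tnnc2 among the called genes. The related inhibitor Cdkn1a, p21, was at 493 and 513 CPM in growth medium and 4575 and 4709.9 CPM at 48 hours and rose by 3.20 ± 0.14. The retinoblastoma gene Rb1, which holds E2F factors in check, rose by 2.49 ± 0.28, whereas its relative Rbl1 fell by 3.82 ± 0.24. The D-type cyclins, which carry mitogen signals into the cell cycle, did not move alike. Ccnd1 was at 1237 and 1222 CPM in growth medium and 13.7 and 15 CPM at 48 hours and fell by 6.33 ± 0.13 (adjusted p = 1.45e-08), Ccnd2 fell by 1.82 ± 0.15, and Ccnd3 rose by 1.1 ± 0.16. The kinase genes Cdk6 and Cdk4 fell by 3.68 ± 0.22 and 1.89 ± 0.14, and the growth regulator Myc by 3.83 ± 0.15.

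Genes of the contractile apparatus rose together to a large share of the reads. In 4 lists, of the thick filament, the light chains and troponins, the Z-disc and excitation-contraction coupling, 76 of 79 genes tested rose and 3 fell, with a median of 5.14. With the 3 listed members that were left out of the joint test for want of single Pax7_48 libraries, their share of the reads went from 0.959% and 0.958% in the Tw2_GM libraries to 13.4% and 13.3% in Tw2_48. These sums leave out Myh3, and with it the deposited means gave 0.967% and 15.4%. A total of 27 of the 83 listed members were under 10 CPM in both Tw2_GM libraries. By the deposited means the 10 most abundant of the listed genes took 4.38% of the reads in Tw2_GM and 13.3% in Tw2_48, where Actc1 (2.09%), Myh3 (2.06%) and Acta1 (1.27%) followed the non-coding RNA H19. The 3 that fell were Tpm3 (−1.84 ± 0.13), a tropomyosin also made outside muscle, Ankrd1 (−1.51 ± 0.22), a stress-responsive ankyrin repeat protein, and Asph (−1.57 ± 0.20), whose gene encodes a hydroxylase and the reticulum protein junctin.

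In the thick filament all 13 members tested rose. Myh8, the perinatal myosin heavy chain, was at 10.8 and 8.14 CPM in growth medium and 2070.0 and 1891 CPM at 48 hours and rose by 7.57 ± 0.18 (adjusted p = 1.45e-08). Mybph, a myosin-binding protein, rose by 7.01 ± 0.17, the M-band gene Myom2 by 6.46 ± 0.13 and the titin gene Ttn by 5.23 ± 0.32. The embryonic heavy chain Myh3 was left out of the tests, since its Tw2_48 mean has more than 1 solution. In the authors' deposited table its means were 91.1 CPM in Tw2_GM and 20577 CPM in Tw2_48. Per kilobase of transcript, the scale on which genes can be compared, the mean levels at 48 hours were 3412 CPM for Myh3, 322 for Myh8, 151 for the fast adult chain Myh1, 63.5 for the slow chain Myh7 and 2.57 for the fast chain Myh4. The single libraries of these neighbours in the order did not overlap, apart from Myh3, for which there are none. In growth medium Myh3 was also highest, at 15.1 CPM per kilobase. These genes are close copies, and how reads shared between them were counted is not given in the sources used here.

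Thin filament genes followed. Tnnc2, the fast troponin C that binds calcium, was at 11.6 and 8.59 CPM in growth medium and 2258 and 2430.4 CPM at 48 hours, and its rise of 7.74 ± 0.18 (adjusted p = 1.45e-08) led the called genes. Myl4, a light chain of embryonic muscle, rose by 7.53 ± 0.18, the slow and cardiac troponin C gene Tnnc1 by 6.46 ± 0.16, the light chain Myl1 by 6.42 ± 0.13 and the fast inhibitory troponin Tnni2 by 5.99 ± 0.18. For troponins C and I the slow or cardiac form stood above the fast form per kilobase at 48 hours. The troponin C level was 7443 CPM per kilobase for Tnnc1 and 3349 for Tnnc2, the troponin I level 3646 for Tnni1 and 566 for Tnni2. Among the T forms the cardiac gene Tnnt2 was at 4249, the fast gene Tnnt3 at 1813 and the slow gene Tnnt1 at 643. For each of these the libraries of neighbours in the order did not overlap.

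The actins changed places. Per kilobase, the cytoplasmic actin Actb led in growth medium, at 2398 and 2561 CPM in the libraries, the cytoplasmic Actg1 followed at 282 and 313, and the muscle forms Actc1, Acta1 and Acta2 lay from 76.9 to 271. At 48 hours Actb was at 302 and 288 CPM per kilobase. In the fit of log2(CPM + 1) Actb fell by 3.07 ± 0.14 and Actg1 by 3.05 ± 0.15. Actc1 stood at 14473 and 13920, the skeletal actin Acta1 at 8763 and 8834 and the smooth muscle actin Acta2 at 4234 and 4044 CPM per kilobase. Actc1 and Acta1 were tested in a fit of the 4 Tw2 libraries alone, where they rose by 7.32 ± 0.13 and 6.14 ± 0.12 (adjusted p = 2.14e-11 for both). Acta2 rose by 3.94 ± 0.13 in the joint fit. Muscle actins are close copies, so the split between them is uncertain.

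In the Z-disc list, with 27 of 28 tested members higher, the alpha-actinin Actn2 was at 11.2 and 7.88 CPM in growth medium and 1721 and 1631 CPM at 48 hours and rose by 7.33 ± 0.19. Tmod1, which caps thin filaments, rose by 7.17 ± 0.32, the myosin chaperone Unc45b by 6.77 ± 0.18, Myoz2 by 6.2 ± 0.14 and Klhl41 by 6.18 ± 0.14. In excitation-contraction coupling, the release and return of calcium that drives contraction, 24 of 25 rose. The calcium pump Atp2a1 was at 22.8 and 14.3 CPM in growth medium and 2587 and 2428 CPM at 48 hours and rose by 7.04 ± 0.22, the calcium-binding reticulum genes Hrc and Casq2 rose by 7.02 ± 0.19 and 6.92 ± 0.17, the voltage sensor Cacna1s by 6.57 ± 0.17 and the muscle sodium channel Scn4a by 6.51 ± 0.14. The release channel Ryr1 rose by 4.55 ± 0.15.

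**Figure D3:**
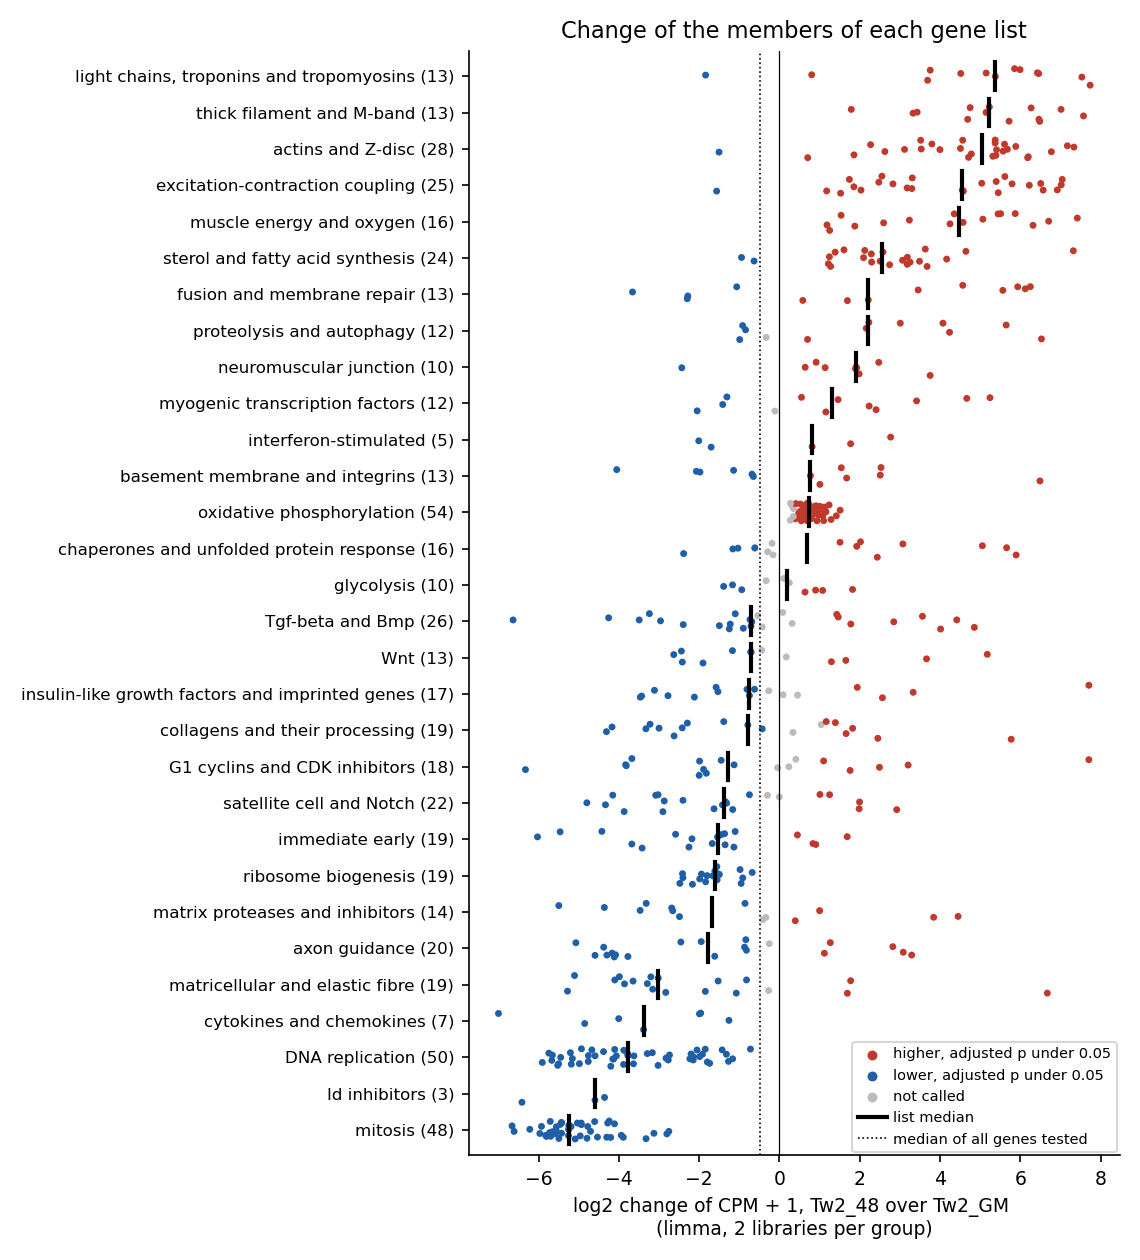
Log2 change of CPM plus 1 (Tw2_48 over Tw2_GM, 2 libraries per group) of each tested member of 30 gene lists, with the number tested in brackets, coloured by the limma call, and the median of each list as a black bar beside that of all genes tested (dotted, −0.49). The lists run from the light chains and troponins, with a median of 5.38, to mitosis, at −5.24, and oxidative phosphorylation forms a narrow group just above 0.

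Genes of myoblast fusion rose with the contractile genes, though not all members did. Tmem8c, which encodes the fusion protein myomaker, was at 41.2 and 41.6 CPM in growth medium and 2960.1 and 2939.5 CPM at 48 hours and rose by 6.12 ± 0.13 (adjusted p = 1.45e-08). Gm7325, the gene of its partner myomixer, was at 2.46 and 1.95 CPM in growth medium and 238 and 246 CPM at 48 hours and rose by 6.25 ± 0.21. Of 13 genes of fusion and membrane repair 9 rose (69.2%) and 4 fell (30.8%), beside 35.3% and 48.9% of all genes. Those that rose included the repair genes Trim72 (5.93 ± 0.14) and Dysf (4.56 ± 0.13) and the muscle caveolin Cav3 (5.56 ± 0.18). The 4 that fell were the adhesion gene Kirrel (−3.66 ± 0.12), the exchange factors Dock5 (−2.30 ± 0.14) and Dock1 (−2.28 ± 0.14), which act in fusion, and the ferlin Myof (−1.07 ± 0.16). At the neuromuscular junction 9 of 10 genes rose. The fetal acetylcholine receptor subunit Chrng rose by 3.75 ± 0.13 and its partner Chrnd by 1.98 ± 0.12. The kinase adaptor Dok7 rose by 2.47 ± 0.16 and the agrin receptor Lrp4 by 1.92 ± 0.14, while Agrn, which encodes agrin itself, fell by 2.43 ± 0.16. The subunit Chrna1 rose by 1.14 ± 0.13, a call lost with quantile normalization (0.34, adjusted p = 0.0965).

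**Figure D4:**
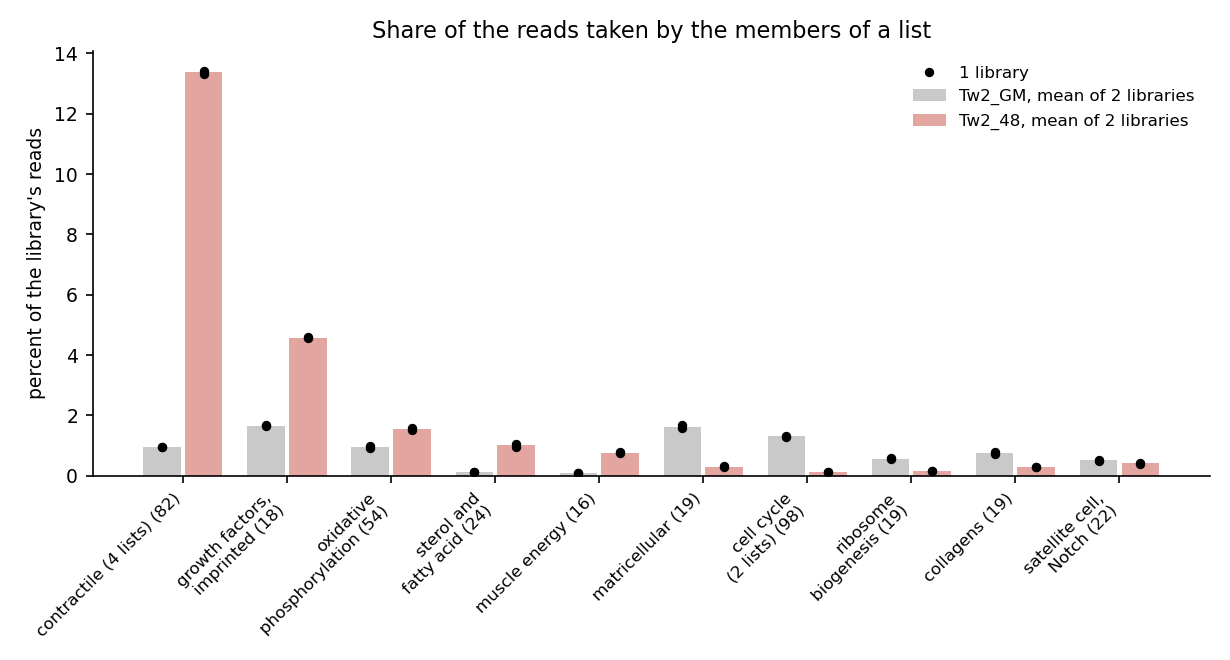
Percent of each library's reads taken by the members of 10 gene groups (number of genes in brackets) in Tw2_GM (grey) and Tw2_48 (red); bars give the mean of 2 libraries, points the libraries. Contractile genes went from 0.959% and 0.958% to 13.4% and 13.3% of the reads (without Myh3), the largest share shown, and the cell cycle, matricellular, ribosome biogenesis and collagen groups had lower shares at 48 hours.

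Muscle forms of energy genes rose, and general glycolysis genes were called higher at a share near that of all genes. All 16 genes of the muscle energy list rose, with a median of 4.46, and their share of reads went from 0.0938% and 0.105% to 0.752% and 0.771%. Ckm, the muscle creatine kinase, was at 5.59 and 5.75 CPM in growth medium and 1137 and 1141 CPM at 48 hours and rose by 7.42 ± 0.17 (adjusted p = 1.45e-08). The muscle phosphoglycerate mutase Pgam2 rose by 6.70 ± 0.17, the glycogen phosphorylase Pygm by 6.31 ± 0.18, and the muscle subunits of cytochrome c oxidase Cox8b and Cox6a2 by 5.87 ± 0.24 and 5.51 ± 0.18. The insulin-responsive glucose transporter Slc2a4 rose by 5.44 ± 0.16. Of the general glycolysis genes 4 of 10 rose and 3 fell, with a median of 0.18 that turned to −0.21 once the dependence on the GC content and length of transcripts was removed. Aldoa, the muscle aldolase, rose by 1.82 ± 0.16 (1.11 with that dependence removed and 1.05 with quantile normalization), whereas the liver phosphofructokinase Pfkl fell by 1.17 ± 0.14, the non-muscle mutase Pgam1 by 1.39 ± 0.18 and the transporter Slc2a1 by 0.94 ± 0.17. With size factors Pfkl and Slc2a1 were at −0.71 and −0.48.

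The nuclear genes of oxidative phosphorylation rose by small amounts. Of 54 tested, 49 rose, by 0.39 to 1.51, 11 of them 2-fold or more, none fell, and the median was 0.72. Without the GC and length dependence the median was 0.15, with 23 higher and 11 lower. The complex I subunit Ndufa9 rose by 1.51 ± 0.16, and its change was 1.58 with the trend removed. Ndufa6 rose by 1.29 ± 0.13, a call lost with the trend removed (0.27).

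Sterol and fatty acid synthesis rose, with 22 of 24 members higher, a median of 2.54, and a share of reads of 0.140% in both Tw2_GM libraries and 1.05% and 0.955% in Tw2_48. Scd1, a desaturase that makes monounsaturated fatty acids, was at 2.88 and 1.33 CPM in growth medium and 515 and 444 CPM at 48 hours and rose by 7.32 ± 0.26 (adjusted p = 4.98e-08), and its close copy Scd2 rose by 3.68 ± 0.13. Of the cholesterol pathway, Nsdhl rose by 4.16 ± 0.15, the last-step reductase Dhcr7 by 3.63 ± 0.13, and Cyp51 by 3.49 ± 0.13. The regulator Srebf2 rose by 1.27 ± 0.14. The 2 that fell, Acaca (−0.95 ± 0.18) and Elovl6 (−0.63 ± 0.25), act in the making and lengthening of fatty acids.

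Of the listed genes H19, an imprinted non-coding RNA, took the most reads in both cultures. It took 1.02% of the reads in Tw2_GM and 3.5% in Tw2_48 by the deposited means and rose by 1.77 ± 0.10 in the fit of the Tw2 libraries alone (adjusted p = 4.13e-08). Its neighbour Igf2 (chromosome 7, 142650766 to 142666816), a growth factor that promotes muscle differentiation, was at 772 and 689.9 CPM in growth medium and 7464 and 7225 CPM at 48 hours and rose by 3.33 ± 0.12 (adjusted p = 6.76e-08). Igf1 rose by 2.56 ± 0.23. Of 17 insulin-like growth factor and imprinted genes tested 4 rose (23.5%) and 10 fell (58.8%), beside 35.3% and 48.9% of all genes. These genes did not move as a group, and their median was −0.75. The imprinted genes Plagl1, a zinc finger factor, and Dlk1, a Notch-like ligand, fell by 3.47 ± 0.23 and 3.43 ± 0.29, and Mest by 2.78 ± 0.15. The binding protein Igfbp7 fell by 3.11 ± 0.18 and the insulin receptor substrates Irs1 and Irs2 by 1.58 ± 0.22 and 2.12 ± 0.16. The imprinted RNAs Meg3 and Rian were at −0.27 ± 0.25 and 0.09 ± 0.25 and were not called.

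Immediate early and growth-signal genes fell in 15 of 19 cases (78.9%, beside 48.9% of all genes), with a median of −1.54. The AP-1 subunit Fosl1 was at 175 and 195 CPM in growth medium and 1.6 and 2.13 CPM at 48 hours and fell by 6.03 ± 0.18 (adjusted p = 2.68e-08). The nuclear receptor Nr4a2 fell by 5.46 ± 0.21, and Dusp4 and Dusp6, phosphatases induced by MAP kinase signalling, by 4.42 ± 0.16 and 3.42 ± 0.15. The stress factor gene Atf3 and the AP-1 genes Fosl2 and Jund were among the 4 that rose. In cytokines, chemokines and prostaglandin synthesis all 7 members tested fell. Cxcl12, a chemokine that guides cell migration, was at 486 and 427 CPM in growth medium and 1.89 and 3.41 CPM at 48 hours and fell by 7.0 ± 0.20, the macrophage growth factor Csf1 fell by 4.85 ± 0.14, and the cyclooxygenases Ptgs1 and Ptgs2 by 4.0 ± 0.15 and 3.39 ± 0.17. Of 5 interferon-stimulated genes 3 rose, the antigen-presenting gene H2-K1 (2.77 ± 0.13), Stat2 (1.77 ± 0.16) and Bst2 (0.81 ± 0.22), and Ifitm2 (−1.70 ± 0.16) and Ifitm3 (−2.01 ± 0.15) fell. Bst2 was at −0.18 without the GC and length trend, and its call was lost without the deeper Tw2_GM library (0.68, adjusted p = 0.0639) and without the shallower Tw2_48 library (0.63, adjusted p = 0.0725). Ifitm2 was at −2.73 with the trend removed.

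Tgf-beta and Bmp genes moved both ways. Of 26, 8 rose (30.8%) and 14 fell (53.8%), near the 35.3% and 48.9% of all genes, or 10 and 10 with size factors. Secreted antagonists lay at both ends. Chrd, which encodes the Bmp antagonist chordin, rose by 4.85 ± 0.18, and Fst, follistatin, by 3.56 ± 0.20. Grem1, also a Bmp antagonist, was at 23.4 and 16.7 CPM in growth medium and 0.0728 and 0.106 CPM at 48 hours and fell by 4.26 ± 0.21. Mstn, which encodes the inhibitor of muscle growth myostatin, was at 0.575 and 0.266 CPM in growth medium and 29.0 and 29.3 CPM at 48 hours and rose by 4.42 ± 0.15, and the ligand Tgfb3 rose by 4.01 ± 0.12. The inhibitory Smad genes Smad6 and Smad7 fell by 2.40 ± 0.14 and 3.24 ± 0.19. Of 13 Wnt genes 4 rose (30.8%) and 7 fell (53.8%), also near the shares of all genes, or 5 and 5 with size factors. The ligands Wnt4 (5.17 ± 0.17) and Wnt9a (3.66 ± 0.13) were higher and the ligand Wnt5a lower. Of the nuclear effectors, Lef1 (−2.63 ± 0.18), Tcf7l1 (−2.42 ± 0.14) and Tcf7l2 (−2.44 ± 0.16) were lower, whereas Tcf7 rose, by 1.29. Axon guidance genes fell in 14 of 20 cases (70.0%, beside 48.9% of all genes). Sema7a fell by 5.07 ± 0.14, the receptor Epha2 fell by 4.59 ± 0.13, the receptor Nrp1 fell by 4.17 ± 0.21, and the cue Ntn4 by 4.38 ± 0.14. The secreted semaphorins split, as Sema3b and Sema3c rose by 3.29 ± 0.17 and 3.08 ± 0.39 and Sema3d also rose, while Sema3a and Sema3e fell.

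Genes of the matrix moved both ways, and the matricellular list held the highest share of genes that fell among the matrix lists. Of 19 matricellular and elastic fibre genes 15 fell (78.9%) and 3 rose (15.8%), beside 48.9% and 35.3% of all genes. The share of reads of this list went from 1.59% and 1.67% to 0.309% and 0.288%. Spp1, osteopontin, was at 5927 and 5893 CPM in growth medium and 173 and 132 CPM at 48 hours and fell by 5.28 ± 0.28 (adjusted p = 4.54e-07). The adhesion-modulating genes Tnc and Thbs1 fell by 5.10 ± 0.20 and 3.99 ± 0.20 and the fibronectin gene Fn1 by 3.65 ± 0.13. Mfap4, a microfibril-associated protein, was at 0.493 and 0.354 CPM in growth medium and 149 and 139 CPM at 48 hours and rose by 6.67 ± 0.16. Of 19 collagen genes 11 fell (57.9%) and 6 rose (31.6%), beside 48.9% and 35.3% of all genes. Those that fell included Col8a1 (−4.31 ± 0.27), Col18a1 (−4.17 ± 0.16) and the basement membrane chain Col4a1 (−3.33 ± 0.13). Those that rose were led by the transmembrane collagen Col25a1 (5.77 ± 0.20).

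Of 13 basement membrane and integrin genes 7 rose (53.8%) and 6 fell (46.2%), beside 35.3% and 48.9% of all genes. Itgb1bp2, which encodes the muscle chaperone melusin, rose by 6.49 ± 0.15, and the laminin chain Lamb1 fell by 4.05 ± 0.14. Of 14 proteases and inhibitors 8 fell (57.1%) and 4 rose (28.6%), beside 48.9% and 35.3% of all genes. Those that fell included the metalloprotease inhibitor Timp1 (−4.36 ± 0.18) and the urokinase Plau (−3.47 ± 0.13). The aggrecanase Adamts5 rose by 4.45 ± 0.21 and Adamts1 by 3.84 ± 0.18.

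Genes of ribosome assembly fell in all 19 cases tested, with changes from −2.48 to −0.68, and their share of reads went from 0.572% and 0.544% to 0.165% and 0.150%. The nucleolar proteins Npm1 and Ncl changed by −2.48 ± 0.30 and −2.17 ± 0.23, Dkc1, which modifies ribosomal RNA, fell by 2.42 ± 0.22, and Utp20 by 2.41 ± 0.15. Protein turnover went the other way in 8 of 12 genes. The muscle ubiquitin ligase genes Asb2 and Trim63 rose by 6.52 ± 0.15 and 5.65 ± 0.16, Trim54 and Trim55 by 4.24 ± 0.14 and 3.01 ± 0.13, and Klhl31 by 4.07 ± 0.18. The transcription factor Foxo1 fell by 0.99 ± 0.14, whereas Foxo4 rose by 2.23 ± 0.12. Small heat shock proteins led the 8 of 16 chaperone genes that rose, with Hspb7 at 5.89 ± 0.21, Hspb2 at 5.66 ± 0.14 and Hspb3 at 5.05 ± 0.14, and the mitochondrial chaperone Hspd1 fell by 2.39 ± 0.16.

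Other genes at the ends of the range did not belong to these groups. Selp, P-selectin, an adhesion molecule known from endothelium and platelets, was at 584 and 793 CPM in growth medium and 3.20 and 2.02 CPM at 48 hours and fell by 7.58 ± 0.22 (adjusted p = 2.39e-08), the largest fall of the genes named. Adcyap1r1, the receptor of the neuropeptide PACAP, fell by 6.36 ± 0.17, Lgr6, a receptor of R-spondins, by 6.08 ± 0.14, Acsbg1, an acyl-CoA synthetase, by 6.2 ± 0.16 and Dynap by 6.24 ± 0.17. Upward, Pgm5, a relative of phosphoglucomutase found at cell contacts, rose by 7.70 ± 0.19, the actin-binding gene Ablim3 by 7.57 ± 0.17, the membrane protein gene Tm6sf1 by 7.45 ± 0.16 and the muscle calpain Capn3 by 7.31 ± 0.13. Ctrb1, which encodes the digestive enzyme precursor chymotrypsinogen, was at 0.246 and 0.531 CPM in growth medium and 214 and 228 CPM at 48 hours and rose by 7.33 ± 0.15 (adjusted p = 1.45e-08).

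Markers of muscle rose, and markers of other cell types that were listed moved both ways. Of 8 muscle markers 6 were listed, 5 were tested and all rose, among them Des (1.86 ± 0.16), which encodes desmin, and the adhesion gene Cdh15 (1.69 ± 0.13), both already high in growth medium at 899 and 969 and 314 and 298 CPM. The 8 listed of 18 fibroblast and fibro-adipogenic progenitor markers took 0.131% and 0.127% of the reads in Tw2_GM and 0.0665% and 0.0730% in Tw2_48. Of these 8 markers 3 were higher and 4 lower, shares near the 35.3% and 48.9% of all genes. Col1a2 was at 3.61 and 3.28 CPM in growth medium and 6.84 and 24.1 CPM at 48 hours, a rise of 1.66 ± 0.44 (adjusted p = 0.00699), and Col1a1 was at 3.53 and 2.39 CPM in growth medium and 2.04 and 20.3 CPM at 48 hours and was not called (1.04 ± 0.73, adjusted p = 0.213). Both were several times higher in the shallower Tw2_48 library, which stood apart for these genes. Without it the change of Col1a2 was 0.82, and without the deeper library 2.5, both called. Has2 and Prrx1 fell by 3.86 ± 0.35 and 0.87 ± 0.25. Of 12 pericyte and smooth muscle markers 8 were listed. Of these 4 rose, Acta2 and Des among them, and 3 fell, beside 35.3% and 48.9% of all genes. Among those that fell, Rgs5 was at 56.3 and 62.1 CPM in growth medium and 0.510 and 0.213 CPM at 48 hours. The 3 bone and cartilage markers Spp1, Runx2 and Sox9 fell, Sox9 by less with size factors (−0.61 against −1.07 ± 0.13). The 1 listed endothelial marker, Eng, fell by 0.90 ± 0.18, but was not called once rescaled by size factors (−0.45, adjusted p = 0.0651) or quantile normalized (−0.62, adjusted p = 0.0751). The 1 listed immune marker, Itgam, was at 0 CPM in both Tw2_GM libraries and at 22.8 and 18.1 CPM in Tw2_48. The 1 listed adipocyte marker, the fatty acid desaturase gene Scd1, rose by 7.32 ± 0.26. Of the 2 listed tenocyte markers the transcription factor gene Scx rose by 2.96 ± 0.16 and Tnc fell. The 1 listed glial and neural marker, the adhesion gene Ncam1, which muscle cells also express, rose by 1.90 ± 0.14. The part of other cell types in the changes above was not tested.

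The Pax7 lineage gives the same contrast, from growth medium to cultures titled 48 with no unit. A test of the difference of the changes (Tw2 minus Pax7) called 530 genes (9.72%) above 0 and 491 (9.01%) below 0. The contractile genes Acta1, Mylpf, Actc1 and Myh3 did not enter this test. Their deposited means were 1223, 968, 664 and 388 CPM in Pax7_GM and 180, 90.1, 131 and 91.1 in Tw2_GM. At 48 these were 11091, 11082, 12605 and 8729 CPM in Pax7_48 and 12723, 9452, 20911 and 20577 in Tw2_48. In the contractile lists 56 of 79 genes were called above 0 and 1 below, with medians of 5.14 in Tw2 and 3.09 in Pax7. Leaving out each library, these counts above 0 ranged from 49 to 64. In the cell cycle lists 41 of 98 were called below 0 and 1 above, with medians of −4.69 and −3.79. These calls below 0 depended on the libraries, with 63 and 61 without the deeper and the shallower Pax7_GM library and from 12 to 22 without any one of the other 6, and they depended on the scaling, with 15 under size factors and 13 under quantile normalization. The counts over all genes changed with the library left out and with the processing, from 310 to 962 above 0 and from 126 to 2191 below 0 when each of the 8 libraries was left out. The highest counts came without the shallower Pax7_GM library (962 and 2191) and the next highest without the deeper one (725 and 1003). The lowest came without the deeper Tw2_48 library above 0 (310) and without the deeper Tw2_GM library below 0 (126). Below 0 the count was 223 with size factors and 1217 without the GC and length trend.

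The 5 largest differences upward were in genes whose Pax7_GM libraries lay above both Tw2_GM libraries. Mb, which encodes myoglobin, was at 6.08 and 4.25 CPM in growth medium and 196 and 211 CPM at 48 hours, and at 233 and 166 CPM in Pax7_GM and 301 and 256 CPM in Pax7_48, so that it changed by 5.06 ± 0.21 in Tw2 and 0.50 ± 0.21 in Pax7, a difference of 4.57 ± 0.30 (adjusted p = 0.000142). In Tw2 the 48 hour libraries lay far above those in growth medium, while the 4 Pax7 libraries lay between 166 and 301 CPM. The slow myosin Myh7 rose by 4.69 ± 0.14 in Tw2 and was at 0.95 ± 0.14 in Pax7 (difference 3.74 ± 0.19). Igfn1, a Z-disc protein of muscle, and Csrp3, the muscle LIM protein, differed by 4.24 ± 0.22 and 3.80 ± 0.19. Igfn1 was at 0.904 and 1.06 CPM in growth medium and 46.4 and 55.2 CPM at 48 hours, and at 25.2 and 29.5 and 40.7 and 35.2 CPM in Pax7_GM and Pax7_48. Ltbp2, a latent Tgf-beta binding protein, moved in opposite directions, from 10.8 and 13.6 to 42.1 and 40.9 CPM in Tw2 and from 64.9 and 70.2 to 15.3 and 16.1 CPM in Pax7 (difference 3.73 ± 0.20, adjusted p = 6.95e-05).

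Downward, Dynap fell by 6.24 ± 0.17 in Tw2 and was at −2.86 ± 0.17 in Pax7 (difference −3.38 ± 0.25). The caveolin Cav1 was at 32.2 and 31.3 CPM in growth medium and 1.02 and 1.49 CPM at 48 hours, and at 28.7 and 37.6 and 18.6 and 14.9 CPM in the Pax7 groups, a difference of −2.93 ± 0.26 (adjusted p = 0.000333). Timp1 and the chromatin gene Atad2 differed by −2.57 ± 0.26 and −2.49 ± 0.52. For Atad2 the call was lost without the deeper Tw2_GM (−2.32), the shallower Tw2_48 (−2.34) or the shallower Pax7_48 library (−2.34). The change of Pax7 itself was −3.02 ± 0.12 in Tw2 and −3.42 ± 0.12 in the Pax7 lineage, and its difference of 0.40 ± 0.17 was not called (adjusted p = 0.13). Myog rose by 5.24 ± 0.16 and 2.59 ± 0.16, a difference of 2.65 ± 0.23 (adjusted p = 0.000325), with growth medium levels of 439 and 351 CPM in the Pax7 lineage.

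**Figure D5:**
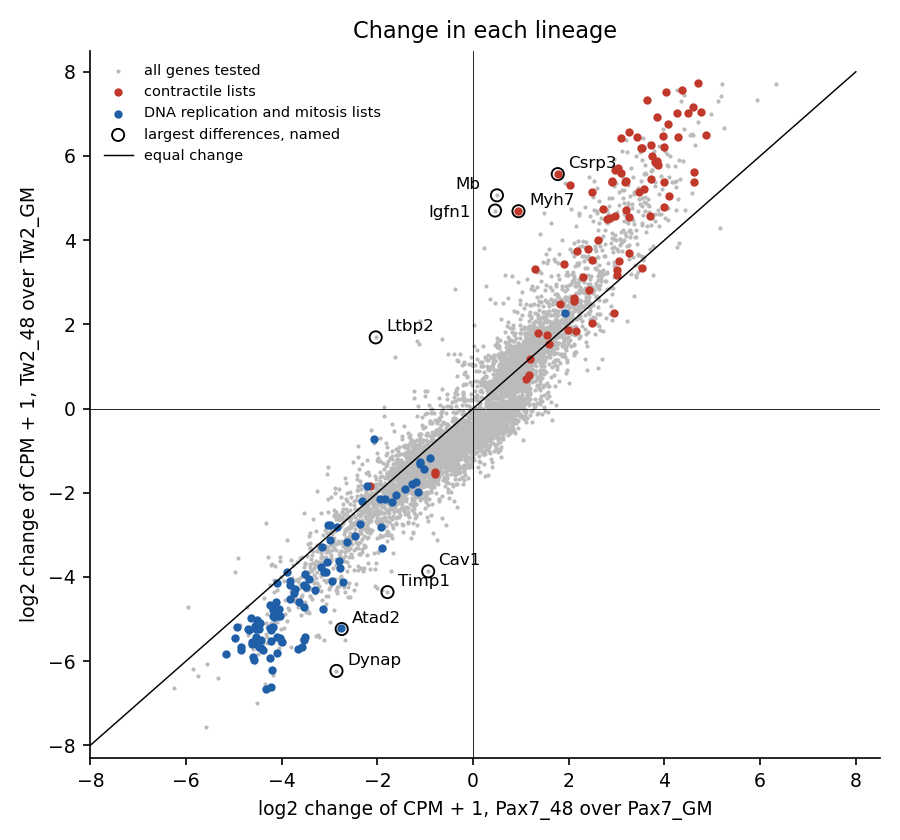
Log2 change of CPM plus 1 from growth medium to 48 in the Pax7 lineage (horizontal) and in the Twist2 lineage (vertical) for each of the 5452 genes tested, with contractile genes in red, DNA replication and mitosis genes in blue, and 9 genes with large differences circled. Most contractile genes lie above the line of equal change and most cell cycle genes below it, and Ltbp2 lies alone among the circled genes with a rise in Tw2 and a fall in Pax7.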

How the data were processed

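RNA sequencing libraries were made in duplicate from 4 groups of plated, tdTomato-sorted muscle cells. The authors deposited 1 table of mean CPM per group over 2 libraries, and log2 ratios to Tw2_GM that equal log2 of the 2 means plus 1 to within 1.25e-11, per the file headers and values. TopHat2 2.0.0, DESeq2 1.6.3 and the build GRCm38 (mm10) are named, without roles, per the submitters' processing notes. The read counter and its strand setting are not given in the sources used here.

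Each deposited mean is the average of 2 whole read counts, each divided by its library size. Fitting the 2 sizes per group gave a single pair of whole counts for 5452 of 5457 genes in all groups. The exceptions, Myh3, Actc1, Mylpf, H19 and Acta1, had more than 1 solution in 1 group and are given by deposited means. The libraries so recovered carry no replicate number and are named by depth. The median absolute log2 ratio between libraries of a group was 0.115 in Tw2_GM, 0.119 in Tw2_48, 0.328 in Pax7_GM and 0.113 in Pax7_48. Intervals and floors cover counting error only.

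The test was limma 3.58.1 (R 4.3.3) on log2(CPM + 1) over all 8 libraries with 1 mean per group, eBayes without trend and Benjamini-Hochberg adjustment, with 4 residual degrees of freedom and a median SE of 0.16. A pseudocount of 1 understates the change of low genes. The difference between lineages was the interaction in the same fit. Symbols were matched for 5438 genes. Transcript lengths and GC content came from GENCODE, for 5436 genes. RefSeq (GRCm38.p6) gave the positions and the promoters, the latter for 4304 genes. Scripts used Python 3.11.15, numpy 2.4.6, pandas 2.3.3 and matplotlib 3.10.9, and the fit was tested on simulated data.

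The gene lists and the choice of this comparison were made with earlier results of these data known. Genes were named by rule: Pax7, the 15 largest called changes each way without overlap of libraries (predicted gene models left out), up to 5 largest called members of each list, fixed regulators, the 5 genes above and the 5 largest lineage differences each way. Some genes that this rule picks are not reported here. Other genes were named for their role in a list after their values were seen. The E2F motif was added to the promoter search after the data were seen. Alternatives were other pseudocounts, a filter on low values, size factors, quantile normalization, eBayes with trend, the Tw2 libraries alone, removal of a trend with GC content and length, and leaving out each library.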

Additional observations from a re-analysis of the deposited data

Results flagged for a closer look

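The change from growth medium to 48 differed between the Twist2 and Pax7 lineages by the limma interaction test for 9 genes named for the size of the difference, and these are given as values (Tw2 minus Pax7, log2 scale, 2 libraries in each of 4 groups). Upward they were the oxygen-binding protein gene Mb at 4.57 ± 0.30 (adjusted p = 0.000142), Igfn1 at 4.24 ± 0.22 (adjusted p = 6.95e-05), Csrp3 at 3.80 ± 0.19 (adjusted p = 6.95e-05), the slow myosin Myh7 at 3.74 ± 0.19 (adjusted p = 6.95e-05) and Ltbp2 at 3.73 ± 0.20 (adjusted p = 6.95e-05). For Ltbp2 both Tw2_48 libraries lay above both Tw2_GM libraries, and both Pax7_48 libraries lay below both Pax7_GM libraries. Downward they were Dynap at −3.38 ± 0.25 (adjusted p = 0.00018), Cav1 at −2.93 ± 0.26 (adjusted p = 0.000333), Timp1 at −2.57 ± 0.26 (adjusted p = 0.000586) and Atad2 at −2.49 ± 0.52 (adjusted p = 0.0145). Groups of 2 libraries are too small for a test of outlying samples.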

How the results depend on the processing

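No paired analysis was possible because the libraries recovered from the group means carry no replicate number. The edgeR and DESeq2 tests planned on recovered reads were not run: the deposited values are group means, not counts, and the recovered libraries were tested with limma alone. With 2 libraries per group, leaving one out leaves a lone library that is assumed to vary like the other groups. The counts of 1923 genes called higher and 2664 lower stayed within 1.5 times in every alternative run. Without each Tw2 library in turn they ranged from 1795 to 1811 and from 2399 to 2524. Under CPM as deposited, size factors, quantile normalization and the trend removal alike, 1686 genes were called higher and 2206 lower of 5431, and 34 genes called higher were called lower with the trend removed. The difference between lineages was less stable. Genes called below 0 numbered 491, 223 with size factors and 1217 with the GC and length trend removed. With each of the 8 libraries left out, calls above 0 ranged from 310 to 962 and calls below 0 from 126 to 2191, and the cause was not tested. Cell cycle genes called below 0 numbered 41, and 12 to 63 with a library left out. Of 312 values for 39 list medians over 8 alternatives, 211 kept direction and stayed within 0.16, the median SE, and 4 reversed. The median moved farther without reversing for 38 lists with size factors, 30 with the trend removed and 18 with quantile normalization. The median of the glycolysis list turned to −0.21 and that of the interferon-stimulated list, with its member Bst2, to −0.18 with the trend removed. The median of the fibro-adipogenic and fibroblast markers, 0.08, turned to −0.21 without the shallower Tw2_GM library and to −0.65 without the shallower Tw2_48 library, over a range of −0.65 to 0.37 without each Tw2 library. Of 1780 values for 178 named genes over 10 alternatives, 1773 kept direction and call, 6 lost the call and 1 reversed. These genes were mostly picked for the largest called changes in the same data. That they kept their calls was thus likely in advance and says little about genes with smaller changes. Of 108 values for 9 lineage differences 105 kept their call, and the 3 that lost it were all for Atad2. These 9 were picked as the largest called differences, so their kept calls do not carry over to the lineage differences of other genes. Depth limits genes near the floor of 3 reads, and such genes had to be higher in another group to be listed.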

Other observations

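A few genes had no read in either library of one Twist2 group. Their folds are lower bounds against 3 reads over both libraries of the group, and these genes were singled out after their values were seen. At 0 in Tw2_GM, Pabpn1l was at 52.8 and 66.4 CPM in Tw2_48, at least 466-fold higher, the orphan receptor gene Gpr20 at 24.5 and 28.4 CPM, at least 207-fold, and Itgam, an integrin subunit known from myeloid cells, at 22.8 and 18.1 CPM, at least 159.9-fold higher. The prostaglandin D synthase gene Ptgds was at 18.9 and 18.3 CPM, at least 146-fold higher, and Susd3 and Ankmy1 were at least 89.0-fold and 82.3-fold higher. Gzme, which encodes a granzyme, had 18.0 and 12.4 CPM in growth medium and none at 48 hours, at least 117-fold lower.

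The libraries of a group differed more than 2-fold for the nuclear RNA Malat1, at 393 and 163 CPM in Tw2_GM, and for Col1a1 and Smoc2, at 2.04 and 20.3 and 2.84 and 6.92 CPM in Tw2_48. Xist, the RNA that silences an X chromosome in females, was at 1188 and 659 CPM in growth medium and 351 and 272 CPM at 48 hours and fell by 1.51 ± 0.54 (limma adjusted p = 0.0285). The sex of the mice was not used here.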
